A study of Solanum lycopersicum with 12 samples.

Results

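The 10 loci described here, Solyc09g011500 to Solyc09g011640, are listed as a cluster of tau-class glutathione S-transferases on chromosome 9 of tomato. They were picked by identifier, without its version suffix, because a pair of neighbours among them had risen in shoots after piperonylic acid (PA). Of the 10, 8 were rows of the table of 34688 loci, and Solyc09g011560 and Solyc09g011580 were absent from it. The files pair no identifier with a gene name or product, so the enzyme name was not checked here, and the position on chromosome 9 and the order of loci are those that the identifiers carry.

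Tau glutathione S-transferases are a class found in plants. They join the tripeptide glutathione to reactive or foreign compounds, herbicides among them, and the conjugates are then moved into the vacuole. The genes often lie in tandem arrays, and many are induced by herbicide safeners, stress and plant hormones. PA is an inhibitor of cinnamate 4-hydroxylase, an early enzyme of the phenylpropanoid pathway that leads to lignin and flavonoids.

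The 12 libraries came from seedlings of cultivar Moneymaker, in 4 groups of 3: shoots of plants whose leaves were sprayed with 300 µM PA in 0.1% Tween 20, shoots of mock-sprayed plants, and roots of each. Sprays were given 7 and 14 days after transplantation and plants were harvested on day 15, with 4 plants pooled per sample. No Tween 20 content was recorded here for the mock spray. No group carried a genetic change. Each pool is 1 sample, and nothing in the labels separates biological from technical spread, so a p-value here speaks only of variation among these pools. Libraries held 4214169 to 7386030 reads from transcript 3′ ends that were counted at loci, as recovered from the normalized counts. Sequenced depth is not known here, and shares of reads are shares of these counted reads. Each transcript gives reads from its end only, so levels do not scale with gene length and can be set side by side between loci, as far as reads of similar loci were assigned correctly. Neighbouring copies of a gene family can share sequence, and the sources used here do not say how shared reads were counted.

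Library profiles correlated at 0.975 to 0.986 within groups and at 0.795 to 0.823 between the tissues. With no named tissue marker in the files, that separation was the only check of the tissue labels. Among the shoot libraries, 1 lay away from the rest: mock shoot replicate 1 scored 51.1 on the leading component (42.2% of their variance), and the other 5 scored -22.4 to 3.61. The PA log2 differences of the members tested in shoot, and some of those between mock tissues, are therefore also given without it. Shoot values of the surrounding loci, shares of reads, ratios of means and likeness of patterns include it.

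The first question was how much each locus was expressed in each tissue of mock-sprayed plants. The cluster was mainly a root cluster, but its members did not share 1 pattern. In bulk tissue, fewer cells of a type and less RNA per cell cannot be told apart. In mock roots Solyc09g011630 averaged 1745 ± 207 normalized counts and Solyc09g011520 averaged 1689.6 ± 292 (SD, n = 3 each), and these levels overlapped. Solyc09g011590 followed at 635 ± 96.7, Solyc09g011500 at 241 ± 35.0, Solyc09g011510 at 73.6 ± 8.85 and Solyc09g011640 at 34.8 ± 13.1. These did not overlap with each other. Solyc09g011540, at 10.7 ± 1.79, and Solyc09g011550, at 2.59 ± 0.05, were the lowest.

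In mock shoots the order was different. Solyc09g011590 was the highest there, at 329 ± 18.6 normalized counts, followed by Solyc09g011630 at 167 ± 48.5 and Solyc09g011640 at 40.5 ± 11.0 (SD, n = 3 each). Solyc09g011520 averaged 9.81 ± 4.52 and Solyc09g011540 averaged 5.82 ± 4.71, and these last levels overlapped. The 3 mock shoot libraries together held 1 read of Solyc09g011500, 2 of Solyc09g011510 and 0 of Solyc09g011550. A count of 0 over the group allows up to 3 reads, and such limits and the intervals on reads cover counting error only.

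**Figure D1:**
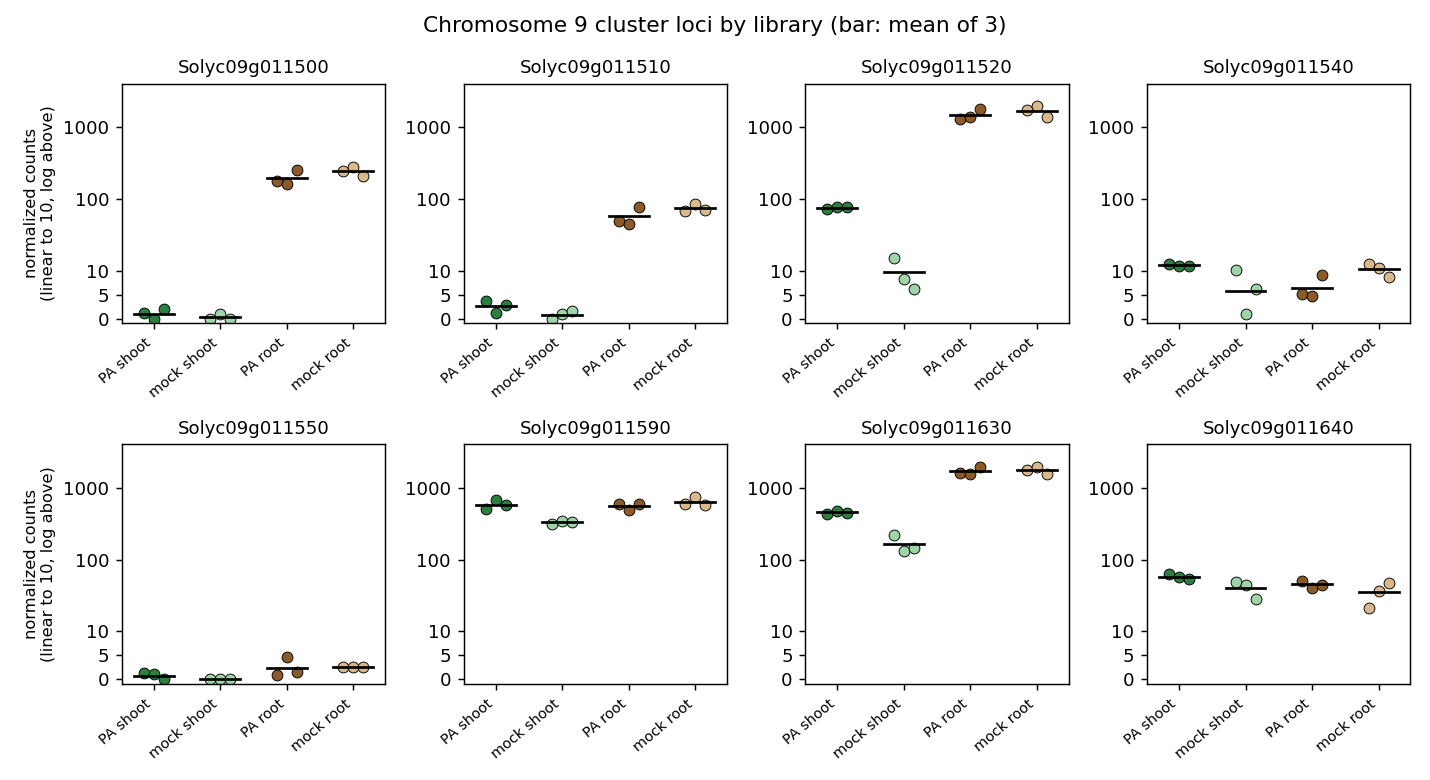
Normalized counts of the 8 loci in each of the 12 libraries, on an axis that is linear to 10 and logarithmic above; points are libraries and bars are means of 3. Solyc09g011500, Solyc09g011510 and Solyc09g011520 were high in root and low in shoot, and Solyc09g011590 and Solyc09g011640 differed less between tissues. The PA shoot points of Solyc09g011520, Solyc09g011590 and Solyc09g011630 lie above all mock shoot points. Those of Solyc09g011540 and Solyc09g011640 do so too, by a small margin.

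Mock roots were compared with mock shoots over all loci that averaged 10 or more normalized counts in the fit's libraries, by limma on log2(value + 1) with Benjamini-Hochberg adjustment. Of all loci tested, 33.6% were higher in mock root and 32.5% were lower. Of the 6 members tested, 5 were higher in mock root and 0 were lower. Solyc09g011500, Solyc09g011510 and Solyc09g011520 had passed the filter only through their root values, so they had to differ and the count supports nothing. Mock shoot was also 1 side of the contrast that chose the cluster, which favours low values there, so the differences below are a description without p-values.

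Solyc09g011520 had 1696, 1978 and 1395 normalized counts in mock roots, against 14.9, 8.29 and 6.25 in mock shoots. The groups were far apart, with a log2 difference of 7.35 ± 0.27 (SE). Solyc09g011630 had 1752, 1948 and 1534 in mock roots, against 222, 132 and 147 in mock shoots, a log2 difference of 3.41 ± 0.18 (SE). Solyc09g011590 had 593, 745 and 566 in mock roots, against 309, 346 and 331 in mock shoots, and differed by less, with a log2 difference of 0.94 ± 0.12 (SE). Without mock shoot replicate 1 the log2 differences of these 3 loci were 7.67, 3.63 and 0.89.

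Solyc09g011640 was the member that was not called. It had 21.0, 36.4 and 47.1 normalized counts in mock roots, against 49.2, 44.2 and 28.1 in mock shoots, and the groups overlapped (log2 difference -0.25, 95% interval -0.999 to 0.503). For Solyc09g011500, 838 reads in mock roots against 1 read in mock shoots gave a depth-adjusted ratio of 627, with an exact 95% interval from 112 to 24804. For Solyc09g011510, 256 reads against 2 gave a ratio of 95.8, with an interval from 26.3 to 795. For Solyc09g011550, 9 reads in mock roots against the limit of 3 for mock shoots gave a depth-adjusted ratio of 2.25. The counting error of the 9 reads is not included, so this ratio is not a lower bound. Solyc09g011540, with a mean below 10, was not tested. It had 12.2, 11.0 and 8.71 normalized counts in mock roots, against 10.3, 0.921 and 6.25 in mock shoots.

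The second comparison set PA shoots against mock shoots. The members were picked from this contrast, so their values are a description without a test. Solyc09g011520 had 72.3, 76.1 and 75.7 normalized counts in PA shoots, against 14.9, 8.29 and 6.25 in mock shoots. PA shoots lay within a narrow range well above mock shoots, and the ratio of means was 7.62. The log2 difference was 2.89 with a standard error of 0.31, and 3.21 without mock shoot replicate 1, in which the locus was highest among mock shoots. Its mock level rested on 26 reads in 3 libraries, and its PA level on 203.

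Solyc09g011630 had 435, 479.9 and 441 normalized counts in PA shoots, against 222, 132 and 147 in mock shoots. The groups did not overlap, the ratio of means was 2.71, and the log2 difference was 1.47 with a standard error of 0.17 (1.69 without mock shoot replicate 1). Solyc09g011590 had 499, 671 and 566 in PA shoots, against 309, 346 and 331 in mock shoots. Its groups did not overlap either, with a ratio of means of 1.76 and a log2 difference of 0.80 with a standard error of 0.12 (0.76 without mock shoot replicate 1).

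The remaining loci were lower or moved less. Solyc09g011640 had 62.5, 57.7 and 53.3 normalized counts in PA shoots, against 49.2, 44.2 and 28.1 in mock shoots, a log2 difference of 0.54 with a standard error of 0.24 (0.70 without mock shoot replicate 1). Its groups did not overlap, but they lay close together. Solyc09g011540 had 12.3, 11.5 and 11.6 in PA shoots, against 10.3, 0.921 and 6.25 in mock shoots, from 32 and 14 reads. Its groups did not overlap either, and the ratio of means was 2.03, from these few reads. Solyc09g011510 had 7 reads in PA shoots and 2 in mock shoots, a ratio of 3.35 with an exact 95% interval from 0.638 to 33.1. Solyc09g011500 had 3 reads in PA shoots and 1 in mock shoots, and Solyc09g011550 had 2 and 0, which is at or under the limit in both groups.

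Of the 4 members tested in shoot, 3 passed limma at an adjusted p below 0.05 and were higher with PA, where 0.924% of all loci were higher. All 4 had groups that did not overlap, with PA higher, which held for 8.15% of all loci. As the contrast chose the members, nothing is read from these shares. The median log2 difference was 1.14 over the 4 members and -0.02 over all 14505 loci tested.

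The third comparison asked whether the roots of leaf-sprayed plants differed at the same loci, a contrast that did not enter the choice of members. Of the 6 members tested in root, 0 passed, where 1.58% of all loci passed in either direction, so a count of 0 does not set the members apart from other loci. The lowest limma adjusted p was 0.498, 0 members had an unadjusted p under 0.05, and edgeR and DESeq2 on whole reads also called 0. All 6 had overlapping groups, where 17.5% of all loci had groups that did not overlap.

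Solyc09g011520 had 1269.9, 1380.4 and 1795 normalized counts in PA roots, against 1696, 1978 and 1395 in mock roots. PA root replicate 3 lay inside the mock range and the other PA roots below it, a log2 difference of -0.19 (95% interval -0.51 to 0.12, limma adjusted p = 0.661). Solyc09g011630 had 1624, 1564 and 1939 in PA roots, against 1752, 1948 and 1534 in mock roots, and the PA values fell within the mock range (log2 difference -0.03, 95% interval -0.27 to 0.21, limma adjusted p = 0.950). Solyc09g011590 had 583, 486 and 584 in PA roots, against 593, 745 and 566 in mock roots (log2 difference -0.20, 95% interval -0.46 to 0.06, limma adjusted p = 0.559). Whether the effect differed between tissues was not tested, since the shoot effect had chosen the loci.

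Solyc09g011500 had 178, 161 and 252 normalized counts in PA roots, against 239.7, 277 and 207 in mock roots. Its log2 difference was -0.31 (95% interval -0.67 to 0.06, limma adjusted p = 0.504). Solyc09g011510 had 49.5, 45.2 and 77.7 in PA roots, against 67.4, 83.7 and 69.7 in mock roots, a log2 difference of -0.39 (95% interval -0.84 to 0.07, limma adjusted p = 0.498). In both, PA root replicates 1 and 2 were below every mock root and replicate 3 was not. Solyc09g011640 had 49.5, 40.5 and 44.9 in PA roots, against 21.0, 36.4 and 47.1 in mock roots, a log2 difference of 0.43 (95% interval -0.15 to 1.01, limma adjusted p = 0.573). Solyc09g011540, with 5.12, 4.61 and 9.14 in PA roots against 12.2, 11.0 and 8.71 in mock roots, and Solyc09g011550, with 8 reads in PA roots against 9 in mock roots, were too low to be tested. The median log2 difference was -0.19 over the 6 members and 0.03 over all 14645 loci tested, and 5 of the 6 estimates were below 0.

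**Figure D2:**
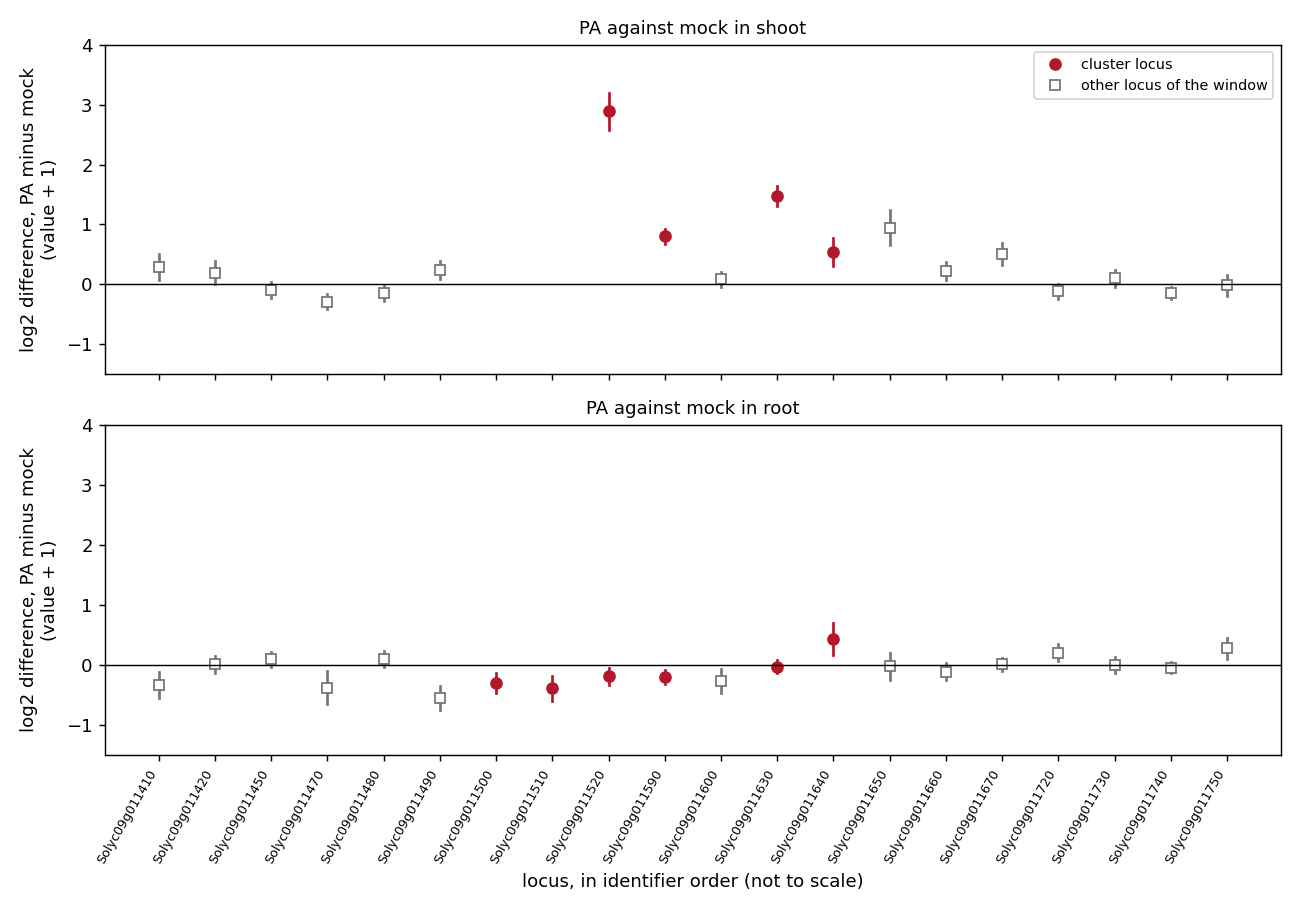
Log2 difference, PA minus mock, of cluster loci (filled circles) and the other tested loci of the identifier window (open squares) in shoot (top) and root (bottom), with bars of 1 standard error. In shoot Solyc09g011520 stood at 2.89 and Solyc09g011630 at 1.47. Solyc09g011600, which lies between Solyc09g011590 and Solyc09g011630 by identifier, stood at 0.08. Solyc09g011610 also lies between them but was too low to be tested and is not shown. In root the 6 members lay between -0.39 and 0.43.

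The surrounding loci were taken as those numbered from Solyc09g011400 to Solyc09g011750 that are not members. There were 21 in the table, and 14 had a mean of at least 10. None of the 14 passed in shoot, where 1.58% of all loci passed in either direction, so this count does not set them apart from other loci (limma; 3 had an unadjusted p under 0.05, and edgeR and DESeq2 also called 0). Solyc09g011600, which lies among the members by identifier, was abundant and had 671, 789 and 709 normalized counts in PA shoots, against 808, 694 and 564 in mock shoots. These overlapped, with a log2 difference of 0.08 ± 0.13 (SE, limma adjusted p = 0.836). Solyc09g011610, also among the members by identifier, was too low to be tested. It had 24 reads in PA shoots and 10 in mock shoots, a ratio of means of 2.66, and its groups overlapped. Solyc09g011490, just before the first member, had 277, 388 and 283 in PA shoots, against 228, 279.9 and 291 in mock shoots, which also overlapped (limma adjusted p = 0.509).

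Solyc09g011650, just after the last member, had 35.6, 48.5 and 43.6 normalized counts in PA shoots, against 25.2, 27.6 and 14.1 in mock shoots. Its groups did not overlap and its log2 difference was 0.95 with a standard error of 0.30, but it did not pass (limma adjusted p = 0.153). Solyc09g011670 had 157, 226 and 185 in PA shoots, against 101, 145 and 156 in mock shoots, so that the groups nearly met (log2 difference 0.51, limma adjusted p = 0.228). Solyc09g011470 was lower with PA, at 145, 152 and 154 in PA shoots, against 202, 177 and 173 in mock shoots, without overlap (log2 difference -0.29, limma adjusted p = 0.333). In root 0 of the 14 passed with limma, edgeR or DESeq2. With limma 1.58% of all loci passed there in either direction, so this count does not set them apart from other loci. The share of all loci with an unadjusted p under 0.05 was not counted in either tissue. Nothing is therefore read from counts of such p-values, for members or for these loci. With each tool 1 of the 14 had an unadjusted p under 0.05 in root. That locus was Solyc09g011490, with 66.6, 75.6 and 116 in PA roots against 115, 140.4 and 116 in mock roots (log2 difference -0.55, limma adjusted p = 0.229). Between mock tissues 13 of the 14 passed, 4 higher in root and 9 lower, where 66.1% of all loci passed in either direction. Solyc09g011600 and Solyc09g011490 were among the 9, with log2 differences, mock root minus mock shoot, of -0.95 and -1.10 (limma adjusted p = 0.000459 and 7.83e-05).

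As a whole the 8 loci took 0.0179 ± 0.0018% of reads in PA shoots, against 0.00816 ± 0.00028% in mock shoots, and 0.0725 ± 0.0097% in PA roots, against 0.0828 ± 0.0125% in mock roots (SD, n = 3 each). The shoot ranges did not overlap and the root ranges did. The shoot sums, and the make-up in shoots given next, hold the values that chose the members. They are a description and were not tested. Within the cluster's signal, Solyc09g011520 made up 6.36 ± 0.43% in PA shoots, against 1.74 ± 0.65% in mock shoots. Solyc09g011630 made up 38.4 ± 1.54% in PA shoots, against 29.9 ± 6.15% in mock shoots, and Solyc09g011590 made up 48.9 ± 2.91%, against 59.9 ± 7.68%. In roots the make-up was another one, with Solyc09g011520 at 36.5 ± 2.36% in PA roots and 38.0 ± 1.38% in mock roots.

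**Figure D3:**
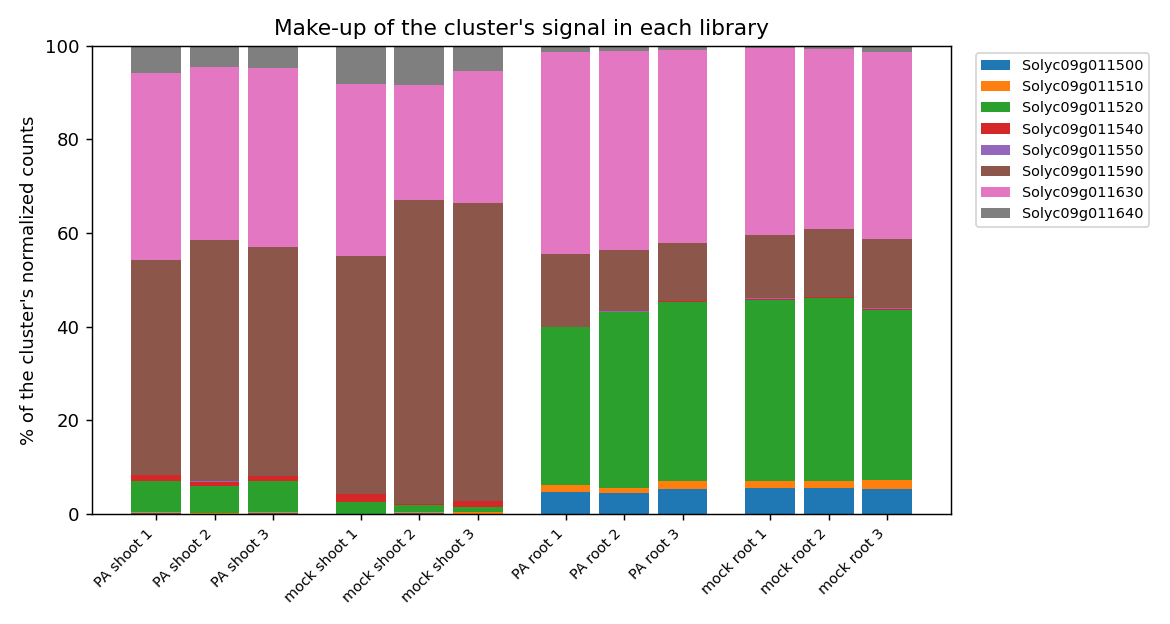
Share of the cluster's normalized counts held by each of the 8 loci, in percent, in each of the 12 libraries. Solyc09g011590 and Solyc09g011630 hold most of the shoot signal, Solyc09g011520 and Solyc09g011630 most of the root signal, and Solyc09g011500 is visible in roots only.

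The ratio of mean root to mean shoot level was also set side by side in both treatments. For Solyc09g011520 it was 19.8 in PA plants, against 172 in mock plants. For Solyc09g011630 it was 3.78, against 10.5, and for Solyc09g011590 it was 0.952, against 1.93, so that the tissues lay closer together in PA plants at these 3 loci. Solyc09g011640 did not share this, at 0.778 in PA plants, where the tissues did not overlap, against 0.859 in mock plants, where they did. Solyc09g011540, at low counts, was at 0.532 in PA plants, without overlap, against 1.83 in mock plants, with overlap. Solyc09g011500, Solyc09g011510 and Solyc09g011550 had too few shoot reads for such ratios to be set side by side. These ratios rest on the shoot values that chose the loci and were not tested.

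Solyc09g011500 had few reads in shoot, and its reads were set beside those of Solyc09g011520 in each group. Of the reads of this pair, Solyc09g011500 gave 11.8% in PA roots (714 reads against 5343, exact 95% interval 11.0 to 12.6%) and 12.5% in mock roots (interval 11.7 to 13.3%). In PA shoots it gave 1.46%, 3 reads against 203, with an interval from 0.301 to 4.20%. In mock shoots it was 1 read against 26, 3.70% with an interval from 0.0937 to 19.0%. These intervals cover counting error of the pooled reads only and leave out the spread between libraries. The PA shoot reads of Solyc09g011520 are among the values that chose the members.

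Loci of similar pattern were sought among 10868 loci outside the cluster with a mean of at least 50, by the root-mean-square difference over 12 libraries of log2(value + 1), each locus centred on its own mean. The libraries share 4 groups, so likeness is mostly likeness of group levels, the shoot contrast included. Closest to Solyc09g011630 were Solyc07g056470 at a difference of 0.30, Solyc03g033460 at 0.31 and Solyc05g052280 at 0.31. Solyc07g056470 averaged 133 normalized counts in PA shoots, against 67.1 in mock shoots, and 469 in PA roots, against 446 in mock roots. Solyc05g052280 averaged 303 in PA shoots, against 112 in mock shoots, and 1292 in PA roots, against 1146 in mock roots.

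Closest to Solyc09g011520 were Solyc09g063150 at 0.42, Solyc04g064880 at 0.56 and Solyc04g078340 at 0.58. Solyc09g063150 averaged 27.6 normalized counts in PA shoots, against 5.25 in mock shoots, and 524 in PA roots, against 452 in mock roots. Solyc04g078340 averaged 65.7 in PA shoots, against 8.51 in mock shoots, and 770.1 in PA roots, against 683 in mock roots. Members were held to a mean of at least 10 instead of 50. Among them, the one nearest to Solyc09g011520 was Solyc09g011510, at 1.04, and 52 of the 10868 loci outside the cluster were closer. Solyc09g011510 rested on 0 to 3 reads in each shoot library. The member nearest to Solyc09g011630 was Solyc09g011590, at 1.16, and 2201 loci outside the cluster were closer.

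**Figure D4:**
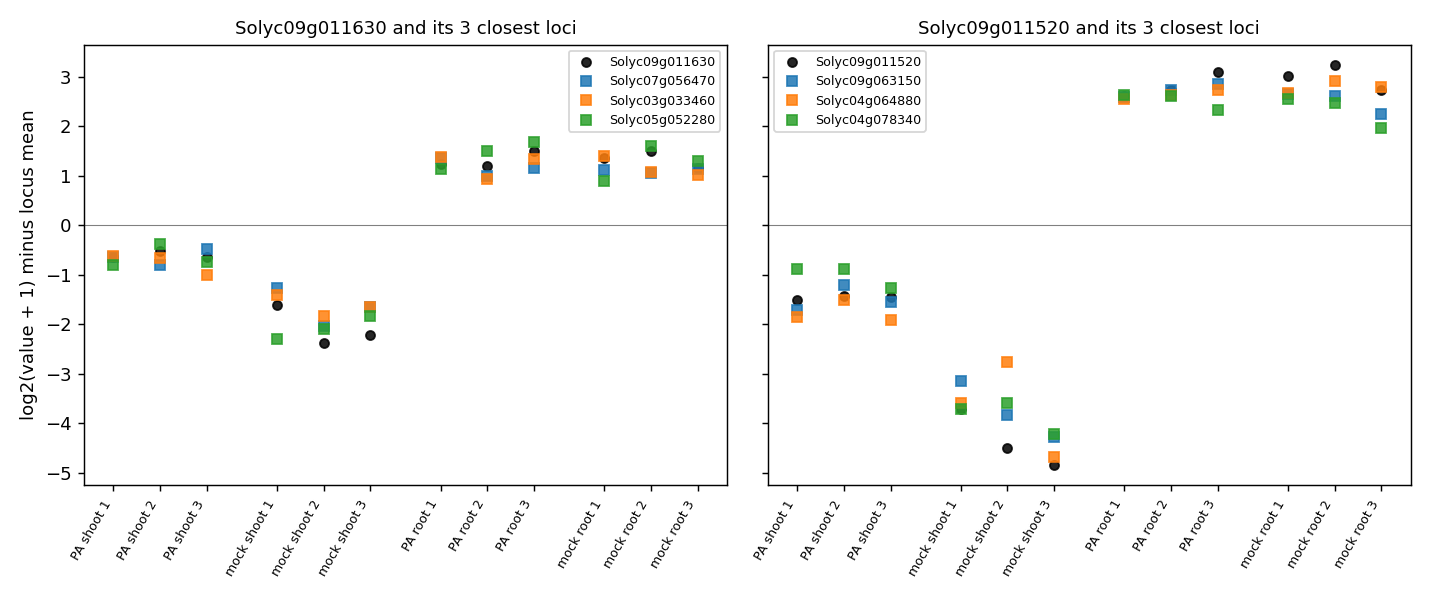
Log2(value + 1) of Solyc09g011630 (left) and Solyc09g011520 (right) with the 3 loci of most similar pattern, each centred on its own mean, in the 12 libraries; points are libraries. All 8 profiles are high in root and lowest in mock shoot, with PA shoot in between.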

How the data were processed

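Messenger RNA of 12 tomato samples was measured with a QuantSeq 3′ library kit from 2 µg of RNA, per the labels' protocols. Tools listed in the submitters' processing notes are STAR 2.6.1d, Trimmomatic 0.38, FastQC 0.11.8 and DESeq2. No read counter, strand setting, genome build or annotation is given in the sources used here. The deposited table holds a normalized signal, called normalized counts by the authors in its name. Dividing a column by its smallest value above 0 (0.761 to 1.56) gave whole numbers, within 0.01, for 100% of values, so whole reads were recovered. Groups and replicate numbers came from the sample titles. The titles name no pairs, and same-numbered samples correlated in their deviations from group means at -0.05 to 0.10. Numbers were therefore not treated as pairs, though so low a correlation cannot exclude pairing. A replicate block was fitted as an alternative. Replicates differed by more than sampling noise (chi-square per degree of freedom 4.07 to 10.7).

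Values were fitted as log2(value + 1) by limma 3.58.1 (R 4.3.3) with its trend option. The added 1 understates differences of low loci. Loci with a mean of at least 10 over the 6 libraries of the fit were tested. Tests were two-sided, with Benjamini-Hochberg adjustment over all loci tested and a threshold of 0.05. Root and shoot were fitted separately. Whole reads were tested with edgeR 4.0.16 (226 loci called in root, 237 in shoot) and DESeq2 1.42.0 (389 and 367). The fit was tested on simulated data. Members, lists, the rules for the loci named (all members; window loci with a mean of at least 10; the 3 loci closest in pattern to each of the 2 most abundant members) and tests were chosen with earlier results of these data known. The reference table held 0 entries with these identifiers, so no glutathione pathway list, tissue marker or sequence is given. The first principal component, the reads ratio of Solyc09g011500 to Solyc09g011520 and the loci picked out within the window were looked at after the values were seen. Solyc09g011610, with a mean below 10, was named outside the rules for the loci named because it lies among the members by identifier. Alternatives were pseudocounts of 0.5 and 5, other filters, scalings and tools, a fit of all 12 libraries, a replicate block, and leaving out each library.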

Additional observations from a re-analysis of the deposited data

How the results depend on the processing

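The count of members called stayed at 0 in root under every alternative, at 3 in shoot except 2 with DESeq2, which gave no adjusted p for Solyc09g011520, and 2 with a filter of 50 (2 members tested), and at 5 between mock tissues except 4 with a filter of 50 (4 tested) and 6 with no filter. The cause was not tested beyond the fewer or more loci that those filters test. Counts over all loci moved more. In root 232 loci passed, against 389 with DESeq2 and 441 with the replicate block, and 14 to 517 with 1 library left out (79, 18 and 517 without PA root replicates 1, 2 and 3, and 14 and 15 without mock root replicates 2 and 3). In shoot 229 passed, against 367 with DESeq2 and 376 with the replicate block, and 62 to 383 with 1 library left out (76 and 62 without PA shoot replicates 1 and 2, and 383 and 130 without mock shoot replicates 1 and 2). The block changed no call of a member. The estimate of Solyc09g011630 in root was -0.03, and with 1 library left out it ran from -0.12 to 0.053. It was above 0 without PA root replicate 1 (0.0039), PA root replicate 2 (0.031) and mock root replicate 2 (0.053). That of Solyc09g011640 between mock tissues was -0.25 and ran from -0.50 to 0.068, above 0 only without mock root replicate 1. None of these had passed. In shoot the log2 difference of Solyc09g011520 was 2.47 with a pseudocount of 5, and otherwise up to 3.21. Over alternatives the limma, edgeR or DESeq2 adjusted p of members in root ran from 0.093 up. The lowest was that of Solyc09g011500 without PA root replicate 3 (log2 difference -0.50, limma adjusted p = 0.093). Without that library Solyc09g011510 was at -0.62 (limma adjusted p = 0.104). Between mock tissues, quantile scaling shifted the median over all loci by 0.13 (log2). By group means instead of libraries, 1 of the 3 loci closest to Solyc09g011630 and 2 of the 3 closest to Solyc09g011520 were shared. The member nearest to Solyc09g011630 was then Solyc09g011510, at 1.07, with Solyc09g011590 at 1.14. Solyc09g011500, Solyc09g011510 and Solyc09g011550 rest on 0 to 3 reads per shoot library. A small PA difference in them was therefore not detectable at this depth. A rise to the 59 to 78 reads that Solyc09g011520 had per PA shoot library would have been seen, and was not.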
